A study of Mus musculus with 12 samples.

Results

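The comparison described here asks whether endurance training was followed by a different expression level, relative to untrained mice, in type I compared with type IIb myofibres of the mouse. It was computed for each gene as the trained minus untrained difference of type I fibres minus the same difference of type IIb fibres, an interaction, and used all 12 libraries of the 12 in the series. A positive interaction means that trained relative to untrained was higher in type I fibres, and a negative one the reverse. The 4 groups of 3 libraries were type I untrained, type I trained, type IIb untrained and type IIb trained, all from male C57BL/6J mice labelled 8 weeks of age, with no label saying whether that is before or after training. Training was treadmill running over 6 weeks, with 5 sessions per week of 60 min at a speed of 12 to 16 m/min, and tissue was taken 3 days after the final session. Type I fibres came from soleus, digested in 2 mg/ml collagenase for 90 min, and type IIb fibres from extensor digitorum longus (EDL), digested for 60 min. Fibre type, muscle and digestion time therefore cannot be told apart. A piece of every fibre served to identify its myosin heavy chain isoform, and the remainder went into a SMART-Seq HT reaction, a kit made for very small amounts of RNA. The labels name neither the animal of a library nor the number of fibres in it, so p-values reflect the spread among these libraries only, and that spread may be technical.

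Type I fibres are slow, rich in mitochondria and resistant to fatigue, and carry the slow myosin heavy chain Myh7 with slow isoforms of the troponins, tropomyosin and light chains. Type IIb fibres are fast, rely on glycolysis and glycogen, and carry Myh4 with fast isoforms of the same proteins and the calcium buffer parvalbumin. Endurance training is known for raising the mitochondrial content of muscle and the supply of blood by capillaries, and recruits slow fibres before fast ones.

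Library totals ranged from 8026397 to 24995288 counts, and 1 count was worth 0.0265 to 0.182 CPM (counts scaled to a common library size, here TMM-scaled). Myh7 made up 80.5% to 99.9% of the counts of the 4 adult heavy chain genes (Myh7, Myh2, Myh1 and Myh4) in the type I libraries and Myh4 99.7% to 100.0% in the type IIb libraries. Genes with at least 10 counts ranged from 3636 to 14428 per library. Type I untrained libraries 1 and 3 and type IIb trained library 3 stood apart with the highest summed level of 15 endothelial markers, 1210, 776 and 306 CPM of the library total. The other 9 libraries held 0 to 52.0 CPM. Both groups, type I untrained and type IIb trained, enter the interaction with a minus sign. A higher level of a gene in either therefore makes its interaction more negative. The values of endothelial markers are therefore given again beside the results they move with. Estimates and medians are also given without these 3 libraries, which leaves type I untrained library 2 alone in its group.

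**Figure D1:**
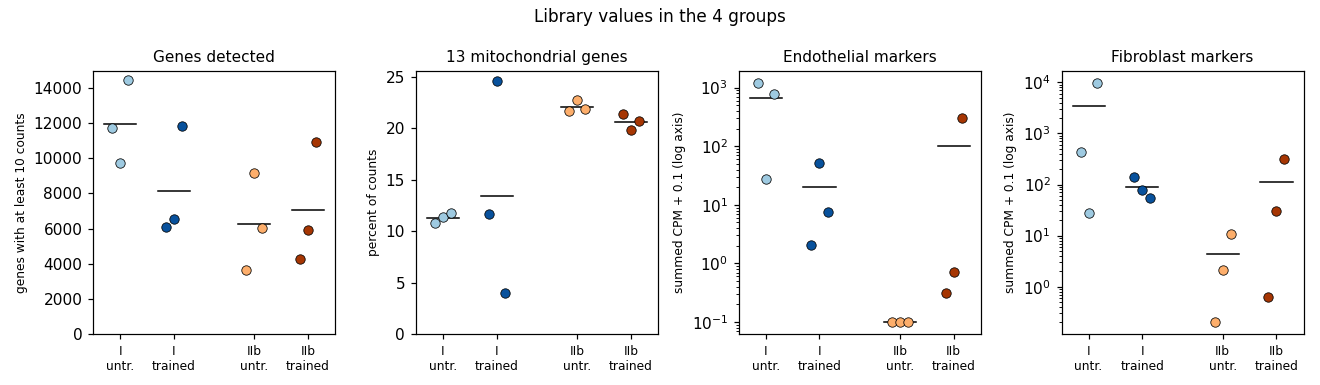
Genes with at least 10 counts, share of counts in the 13 mitochondrially encoded protein genes, and summed levels of endothelial and fibroblast markers (CPM of library totals plus 0.1, log axis) in each library, as points, with the group mean as a line. The 3 libraries with over 300 CPM of endothelial markers lie in type I untrained and type IIb trained.

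No gene passed the test of the interaction. Of 11747 genes tested with edgeR's quasi-likelihood test, 0 (0.0%) reached an adjusted p under 0.05, and the smallest adjusted p was 0.418. An unadjusted p under 0.05 was found for 1050 genes (8.94%), 113 with a positive interaction (0.962%) and 937 with a negative one (7.98%). A group with 3 counts or fewer was present in 94.5% of the 937 and in 40.7% of the 113, against 23.2% of all genes tested. Training within each fibre type likewise gave 0 calls in edgeR (0.0% in type I and 0.0% in type IIb), with unadjusted p under 0.05 for 48 genes higher (0.409%) and 297 lower (2.53%) in trained type I fibres, and for 807 higher (6.87%) and 158 lower (1.35%) in trained type IIb fibres. DESeq2 called 28 genes with a positive (0.243%) and 334 with a negative interaction (2.9%) of 11534 with an adjusted p. All 28 and 325 of the 334 had a group with 3 counts or fewer. limma-voom with quality weights called 0 positive (0.0%) and 3 negative genes (0.0255%), mt-Co1, mt-Nd1 and mt-Cytb. Their edgeR estimates had the opposite sign, 0.21, 0.78 and 0.86 on the log2 scale.

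The 2 training effects are independent in their libraries, since the fibre types share none. Their median over all genes was -0.28 on the log2 scale in type I and 0.36 in type IIb fibres. The median interaction was -0.68, with 7113 of 11747 genes negative (60.6%) and 4634 positive. Across the 11747 genes, which are not independent replicates, the effects had a Pearson r of -0.20 and a Spearman rho of -0.15. Over the 1149 genes with a mean of at least 100 CPM these were -0.18 and -0.0028. Other scalings moved the median interaction to -1.01 (RLE size factors) and -0.47 (upper-quartile). The median interaction of all genes turned positive without type IIb trained library 3 alone. It was 1.20 without the 3 libraries of high endothelial markers. Gene groups are therefore set beside the median of all genes below. Within a single fibre type, all trained libraries lay above all untrained ones in 2.78% of genes in type I and 2.82% in type IIb fibres, and below in 8.93% and 1.92%. Trained type I libraries all lay above untrained while trained type IIb libraries all lay below in 16 genes (0.136%). The reverse held in 20 genes (0.17%), 8 of them with a group at 3 counts or fewer. Training labels can be arranged within fibre types in 400 ways. A single arrangement gives each of these orders, a larger share than either seen, so the genes named for it are a description. Separation in the same direction was seen in 8 genes above (0.0681%) and 6 genes below (0.0511%).

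**Figure D2:**
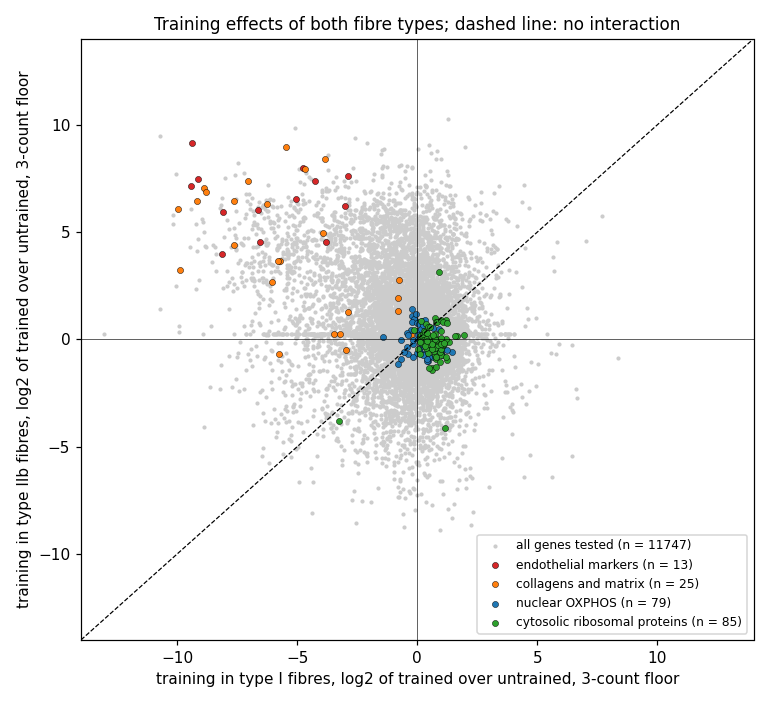
Trained over untrained ratio of pooled counts (log2, with a floor of 3 counts per group) in type I fibres on the x axis and in type IIb fibres on the y axis, 1 point per gene tested and 4 gene lists in colour. Points below the dashed line have a positive interaction; endothelial and matrix genes lie mostly at upper left, and genes of oxidative phosphorylation and ribosomal proteins near the centre.

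Sequence before the transcription start is shown for 3 genes with a positive interaction that stand for the 3 kinds of pattern described next: opposite directions in both fibre types (2310002L09Rik), slow-fibre transcripts at trace level in type IIb fibres (Tnnc1), and an immediate early gene lower in trained type IIb fibres (Fos). RefSeq promoter windows (GRCm38.p6, the same assembly as mm10) were found for 48 of the 60 genes considered for naming, and in 15 of them, these 3 included, the RefSeq start equals the gene start of the files. Each line gives the 250 bases before the start, 5′ to 3′ on the gene's strand. Capitals mark matches on either strand to TATAA (TATA box core), CAGCTG (an E-box form), CATTCC (MCAT element) or TGACG (core of the cyclic AMP response element). The windows are chr4:73950847-73951096 on the minus strand, chr14:31208062-31208311 on the plus strand and chr12:85473640-85473889 on the plus strand.
2310002L09Rik: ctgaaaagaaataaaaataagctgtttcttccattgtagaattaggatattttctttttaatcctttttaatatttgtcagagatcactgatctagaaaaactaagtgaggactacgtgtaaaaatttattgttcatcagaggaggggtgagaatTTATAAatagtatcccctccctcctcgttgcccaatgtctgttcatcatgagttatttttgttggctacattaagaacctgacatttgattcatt
Tnnc1: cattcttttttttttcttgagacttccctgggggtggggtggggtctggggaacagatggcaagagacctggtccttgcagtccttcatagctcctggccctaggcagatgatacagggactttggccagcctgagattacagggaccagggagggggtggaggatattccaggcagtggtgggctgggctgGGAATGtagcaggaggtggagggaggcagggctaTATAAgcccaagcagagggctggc
Fos: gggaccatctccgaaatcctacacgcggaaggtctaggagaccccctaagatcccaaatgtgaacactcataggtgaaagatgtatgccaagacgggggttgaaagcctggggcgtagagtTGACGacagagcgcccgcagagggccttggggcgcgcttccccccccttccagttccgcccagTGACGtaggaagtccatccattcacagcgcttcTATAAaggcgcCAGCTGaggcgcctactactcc
In the 2310002L09Rik window TATAA and its reverse complement overlap, the first starting 95 bases before the start. Tnnc1 holds TATAA 24 bases and an MCAT match 58 bases before the start. Fos holds TATAA at 33, CAGCTG at 22 and TGACG at 129 and 66 bases before the start. Among 32851 windows of the same length, TATAA is found in 22.8%, CAGCTG in 13%, CATTCC in 12.6% and TGACG in 17.8%, so each motif is common and a match is a description only.

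Among genes well counted in all groups, the lowest unadjusted p values of positive interactions belonged to St13, 2310002L09Rik and Rbm15. St13 (chr15:81363669-81400077, minus strand) encodes a cochaperone that binds the heat shock cognate protein Hspa8. It measured 198, 222 and 250 CPM in untrained and 366, 167 and 393 in trained type I libraries, then 754, 441 and 536 in untrained and 51.6, 92.9 and 138 in trained type IIb libraries. The type I groups overlapped, and every trained type IIb library lay below every untrained one, 5.38-fold lower in pooled counts. The interaction was 3.08 ± 0.81 (log2, SE), with an edgeR adjusted p = 0.418, and not called.

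2310002L09Rik (chr4:73939371-73950846, minus strand), a gene known by its RIKEN clone name, differed in opposite directions in both fibre types. Its level was 73.2, 113 and 92.2 CPM in untrained and 380, 163 and 325 in trained type I libraries, 3.28-fold higher in the trained pool. In type IIb fibres it was 859, 513 and 753 CPM untrained and 445, 302 and 304 CPM trained, 2.01-fold lower. Neither pair of groups overlapped. The interaction of 2.66 ± 0.74 had an adjusted p of 0.418 in edgeR.

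Rbm15 (chr3:107325421-107333673, minus strand), an RNA-binding component of the complex that writes N6-methyladenosine, showed the same order. Levels were 139, 167 and 168 CPM in type I untrained libraries and 710, 195 and 221 CPM in type I trained ones, of which library 1 stood far above the other 2. Type IIb libraries held 361, 256 and 268 CPM untrained and 110, 72.9 and 56.1 CPM trained. Trained and untrained libraries did not overlap in either fibre type, and the interaction was 3.14 ± 0.91 (edgeR adjusted p = 0.418).

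Sdhaf4 (chr1:23995939-24005656), an assembly factor of succinate dehydrogenase, and Asb5 (chr8:54529580-54587875), of the ankyrin repeat and SOCS box family, had separate trained and untrained groups in type IIb fibres and overlapping ones in type I fibres. Sdhaf4 measured 198, 118 and 87.5 CPM in untrained and 21.5, 16.2 and 54.4 CPM in trained type IIb libraries, while the type I groups, 120 to 125 and 101 to 407 CPM, overlapped. Of its exon sequence, 12.7% is shared with another gene. Asb5 was at 788, 395 and 651 CPM in untrained and 227, 112 and 235 CPM in trained type IIb libraries, and overlapped in type I fibres at 271 to 506 and 443 to 633 CPM. Their interactions were 3.28 ± 1.10 and 2.16 ± 0.73, each with an adjusted p of 0.418 in edgeR. For these 5 genes the interaction stayed positive in the 25 alternative settings tried on each, between 1.75 (Asb5) and 4.73 (Sdhaf4).

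**Figure D3:**
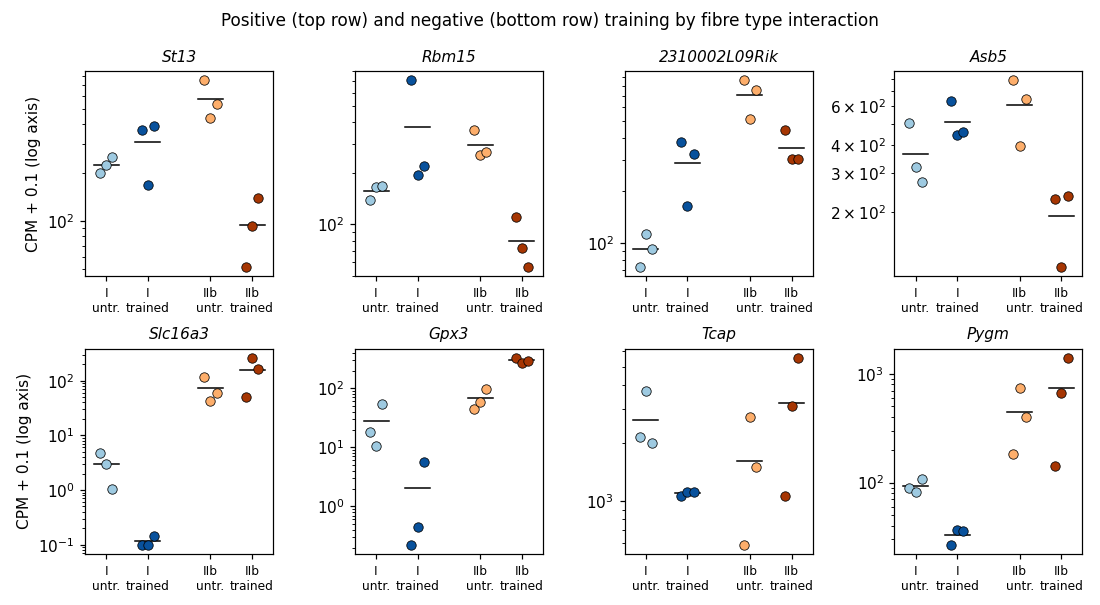
Level of 8 genes in each library (CPM plus 0.1, log axis), with points for libraries and lines for group means. In the top row trained type IIb libraries lie lowest of the type IIb pair, as for St13 at 51.6 to 138 against 441 to 754 CPM; in the bottom row trained type I libraries lie below untrained ones, as for Gpx3.

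Slow contractile genes with a positive interaction were abundant in type I fibres and at trace level in type IIb fibres. Tnnc1 (chr14:31208312-31211729), the slow and cardiac troponin C, measured 5910, 14390 and 5530 CPM in untrained and 6372, 8338 and 6309 CPM in trained type I libraries. Type IIb untrained libraries held 0.325, 7.25 and 32.5 CPM, and trained ones 0.129, 0 and 0.0722 CPM, which is 2 counts in the whole trained group against 445 in the untrained group. The interaction of 7.06 ± 1.75 (edgeR adjusted p = 0.418) therefore rests on traces in type IIb fibres, which spanned 0.325 to 32.5 CPM among the untrained libraries themselves. Without type IIb untrained library 1, the lowest of these, Tnnc1 was called at 7.63 (edgeR adjusted p = 0.00114).

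Myl2, the slow regulatory light chain, had 19 counts in the untrained and 1 count in the trained type IIb group, beside 3662 to 25400 CPM in type I libraries. Its interaction was 4.46 ± 1.13 with an adjusted p of 0.418 in edgeR. Tpm3, slow tropomyosin, followed with 238 and 17 counts in untrained and trained type IIb fibres and an interaction of 3.82 ± 1.54 (edgeR adjusted p = 0.499). Casq2, the slow and cardiac calsequestrin that stores calcium, went the other way at -5.73 ± 2.23 (edgeR adjusted p = 0.457). Its 189 counts in trained type IIb fibres all came from library 3, the library with high endothelial markers, and without that library the interaction was 3.30. Of 17 slow contractile genes tested, 4 had a positive (0.962% of all genes) and 1 a negative interaction (7.98% of all genes) at unadjusted p under 0.05, and 10 had a group at 3 counts or fewer. Their median was -0.19, against -0.68 for all genes. It was 1.69 without type IIb trained library 3, where the median of all genes was positive as well. Without the 3 libraries of high endothelial markers the slow contractile median was 0.99, against 1.20 for all genes. With no filter on low counts, the 4 positive interactions that edgeR called were all slow contractile genes: Tnnc1 (adjusted p = 9.5e-10), Myl2 (0.00467), Tpm3 (0.00825) and Myl3 (0.00715).

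Fgl2, Zfp65 and Ttr, also among the 10 positive interactions of smallest p, rested on single type IIb libraries or on groups without counts. Fgl2, a fibrinogen-like protein, was at 203 CPM in type IIb untrained library 3 and at 0 and 8.21 CPM in the other 2. Zfp65, a zinc finger gene, was at 74.6, 1.69 and 69.7 CPM in type IIb untrained libraries and had 0 counts in the trained ones. Ttr, transthyretin, was at 17.1 CPM in type IIb untrained library 1, at 30.5 and 19.3 CPM in type I trained libraries 2 and 3, and at 0 to 0.372 CPM in the rest.

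The fast contractile genes Pvalb, Mylpf and Atp2a1 had lower values in trained than in untrained type I fibres, and Myh4 had higher ones. Pvalb (chr15:78191114-78206400), parvalbumin, was at 73.6, 2.80 and 1.43 CPM in untrained and 0.373, 0.942 and 0.623 CPM in trained type I libraries. In type IIb fibres it ranged from 12790 to 23450 CPM untrained and 17600 to 56010 CPM trained, with overlap. The interaction was -6.05 ± 1.90 (edgeR adjusted p = 0.420). Type I untrained library 1, with the highest type I value of Pvalb, was also the type I library with the lowest Myh7 share. That share was 80.5% of heavy chain counts, against 91.5% to 99.9% in the other type I libraries. Mylpf, the fast regulatory light chain, measured 682, 435 and 330 CPM in untrained and 243, 308 and 113 CPM in trained type I libraries, 2.40-fold lower and without overlap. Its type IIb groups overlapped at 17820 to 39620 CPM, and its interaction of -1.11 ± 0.52 (edgeR adjusted p = 0.544) became 0.10 under upper-quartile scaling.

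Atp2a1, the calcium pump of fast fibres, lay at 74.6 to 138 CPM in untrained and 18.6 to 70.2 CPM in trained type I libraries, with an interaction of -1.67 ± 0.83 (edgeR adjusted p = 0.593). Of its exons, 21.9% are shared with another gene. Of 15 fast contractile genes tested, 12 were negative (60.6% of all genes), 2 of them at unadjusted p under 0.05 (7.98% of all genes), and the median was -1.45. It was -0.39 without type I untrained library 1. The median over all libraries was 0.77 below that of all genes under TMM and 0.08 above it under upper-quartile scaling. Myh4 itself had an interaction of 1.44 ± 1.07 and Myh7 of -1.40 ± 1.06, with adjusted p of 0.890 and 0.997 in edgeR. In type I fibres Myh4 was at traces, 0.240, 0 and 0.504 CPM untrained and 1.62, 0.825 and 1.34 CPM trained, without overlap.

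Regulators of fibre type gave no common direction, with 9 of 19 positive (4634 of 11747 over all genes). Vgll2, a cofactor of TEAD factors, ranged from 66.3 to 267 CPM in untrained and 130 to 464 CPM in trained type I libraries, and from 9.96 to 52.5 and 6.01 to 10.1 CPM in type IIb libraries. Its groups overlapped in both fibre types (2.54 ± 1.27, edgeR adjusted p = 0.593). Prox1, a homeodomain factor of slow fibres, had counts in 1 of 6 type IIb libraries, trained library 2, and its interaction of -8.98 became 1.09 without that library.

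Genes of oxidative phosphorylation were among the groups with positive interactions. Cox7c, a small subunit of cytochrome c oxidase, measured 2384, 3930 and 1245 CPM in untrained and 8951, 10100 and 2650 CPM in trained type I libraries. In type IIb fibres it was 5677, 4128 and 4436 CPM untrained and 6749, 1874 and 1611 CPM trained. Both pairs overlapped, with trained type I pooled counts 2.69-fold higher and trained type IIb pooled counts 1.49-fold lower. The interaction was 2.00 ± 0.76 (edgeR adjusted p = 0.450). Cox6c and Cox7a2, subunits of the same enzyme, had interactions of 1.56 ± 0.62 and 1.86 ± 0.75 (edgeR adjusted p = 0.463 and 0.472).

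Atp5j, coupling factor 6 of ATP synthase, was at 2340, 3905 and 2363 CPM in untrained and 1704, 797 and 1972 CPM in trained type IIb libraries, without overlap. Its type I groups overlapped at 1227 to 2203 and 1511 to 4086 CPM, and its interaction was 1.70 ± 0.61 (edgeR adjusted p = 0.424). Of 79 nuclear genes of oxidative phosphorylation tested, 59 were positive, against 4634 of 11747 over all genes. At unadjusted p under 0.05, 9 were positive (0.962% of all genes) and none was negative (7.98% of all genes). Leaving out 1 library at a time gave 1 positive at that level (without type I trained library 2) to 23 (without type I untrained library 2). Their median was 0.74, and 0.57 from pooled counts with the 3-count floor, against -0.68 and -0.57 for all genes, and was 0.40 without type I trained library 2 and 1.12 without type I untrained library 2. By complex, 29 of 37 genes of complex I were positive (median 0.78), 1 of 4 of complex II (-0.20), 5 of 9 of complex III (0.62), 12 of 13 of cytochrome c oxidase (1.26) and 11 of 15 of ATP synthase (0.43). Cycs, cytochrome c, was at 1.59.

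All 13 mitochondrially encoded protein genes had positive interactions in edgeR (4634 of 11747 over all genes), with a median of 0.99. None was at unadjusted p under 0.05 (8.94% of all genes). Type I trained libraries differed widely among themselves: these genes took 11.7%, 24.5% and 3.96% of the counts there. Untrained type I libraries had 10.7% to 11.7%, untrained type IIb libraries 21.7% to 22.7% and trained type IIb libraries 19.8% to 21.4%. The interaction of the share was 3.57 percentage points (exact two-sided permutation of training labels within fibre type, p = 0.61, smallest possible 0.005). It was -2.004 without type I trained library 2 (exact permutation p = 0.81) and 8.28 without type I trained library 3 (exact permutation p = 0.01, the smallest possible there). mt-Atp6, a subunit of ATP synthase, was at 440, 1201 and 215 CPM in type I trained against 132 to 238 CPM in untrained libraries, with an interaction of 1.66 ± 0.81 (edgeR adjusted p = 0.575). mt-Co3, of cytochrome c oxidase, gave 1.71 ± 0.91 (edgeR adjusted p = 0.641).

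Enzymes of the mitochondrial matrix did not share 1 direction. Idh2 (chr7:80094846-80115392), mitochondrial isocitrate dehydrogenase, measured 28.7, 40.6 and 17.5 CPM in untrained and 91.0, 119 and 123 CPM in trained type IIb libraries, 3.83-fold higher and without overlap. In type I fibres it was 1186, 1563 and 881 CPM untrained and 1778, 1338 and 1071 CPM trained, with overlap. The interaction was -1.73 ± 0.64 (edgeR adjusted p = 0.433). Dld, a subunit shared by the 2-oxoacid dehydrogenase complexes, was higher in trained type I libraries, at 224 to 894 against 158 to 206 CPM, and gave 1.97 ± 0.88 (edgeR adjusted p = 0.511). Aldh6a1, of valine breakdown, gave 2.98 ± 1.10 (edgeR adjusted p = 0.435), with overlap in both fibre types and 18.6% of its exons shared. Of 22 genes of the tricarboxylic acid cycle 15 were positive (4634 of 11747 over all genes), with a median of 0.12. Of 31 genes of fatty acid use 15 were positive, with a median of -0.0047. Without type IIb untrained library 2 these medians were -0.28 and -0.64, and without type IIb trained library 3 they were 0.51 and 0.87. The median of all genes was positive as well without the latter library.

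**Figure D4:**
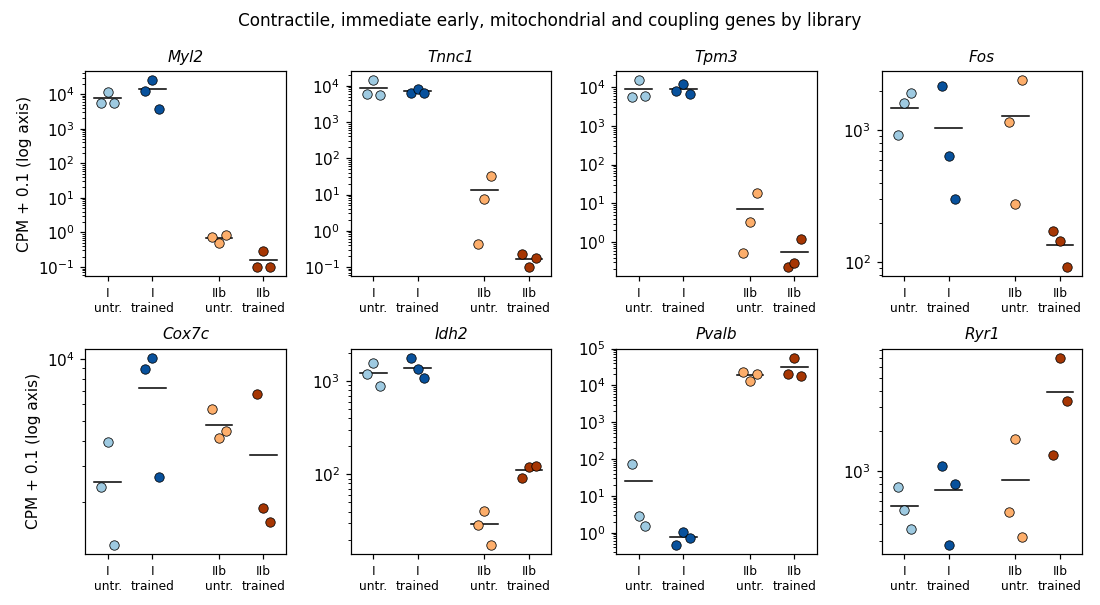
Levels by library (CPM plus 0.1, log axis) of slow contractile genes, Fos, and mitochondrial, calcium-buffer and calcium-release genes, with group means as lines. For the slow genes Myl2, Tnnc1 and Tpm3 trained and untrained type I libraries overlap and the type IIb libraries are at traces; for Idh2 the type IIb groups are separate.

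Ribosomal protein and chaperone genes had positive medians with all 12 libraries, and their size moved with single libraries. Of 85 cytosolic ribosomal protein genes, 72 were positive (4634 of 11747 over all genes), 1 at unadjusted p under 0.05 (0.962% of all genes). The median was 0.67. It ranged from 0.25 (without type I trained library 2) to 1.25 (without type I untrained library 2) when 1 library was left out. Many of these genes have near-identical processed copies, so their counts are uncertain. Rps27l, a paralogue of Rps27, was at 349 to 843 CPM in untrained and 163 to 390 CPM in trained type IIb libraries (1.98 ± 0.88, edgeR adjusted p = 0.504). Of 77 mitochondrial ribosomal protein genes 45 were positive, 2 of them at unadjusted p under 0.05 (Mrpl42 at 2.11 and Mrpl41 at 2.91), beside the same shares of all genes. Their median was 0.45, and 0.076 from pooled counts with the 3-count floor. The median ranged from -0.11 without type IIb untrained library 2 to 0.91 without type IIb trained library 3. In the latter setting the median of all genes was positive as well. Mrpl41 separated in type I fibres, at 39.0, 58.2 and 66.2 CPM untrained and 396, 121 and 83.4 CPM trained.

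Of 26 heat shock and chaperone genes, 20 were positive (4634 of 11747 over all genes) and 0 reached an unadjusted p under 0.05 (8.94% of all genes). The median was 0.75, and 0.28 without type I trained library 1. Hspa8, the constitutive partner of St13, measured 1308, 1914 and 1549 CPM in untrained and 2278, 1586 and 2575 CPM in trained type I libraries. It was at 1779, 1442 and 1667 CPM in untrained and 994, 1222 and 1244 CPM in trained type IIb libraries. Only the type IIb groups were separate, and the interaction was 0.93 ± 0.49 (edgeR adjusted p = 0.634). Hsp90b1 of the endoplasmic reticulum gave 2.03 ± 1.04 and Cryab, a small heat shock protein abundant in slow fibres, 0.79 ± 0.48 (edgeR adjusted p = 0.616 and 0.741). Over 25 alternative settings the medians of the chaperone and oxidative phosphorylation lists were positive in 25, and those of the mitochondrially encoded and cytosolic ribosomal lists in 24 and that of the mitochondrial ribosomal list in 23. The exceptions for the mitochondrially encoded and cytosolic ribosomal lists were -0.02 in limma-voom and -0.07 without the 3 libraries of high endothelial markers.

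Psma2, a proteasome core subunit, and Txn1, thioredoxin, were 2 more of the 16 genes (0.136%) separated upward in trained type I and downward in trained type IIb libraries. Psma2 was at 149, 192 and 223 CPM in untrained and 391, 384 and 229 CPM in trained type I libraries, then 234, 306 and 282 CPM in untrained and 175, 121 and 143 CPM in trained type IIb libraries (1.74 ± 0.79, edgeR adjusted p = 0.527). Txn1 was at 88.3, 105 and 103 CPM, 316, 211 and 128 CPM, 81.8, 58.7 and 76.6 CPM, and 58.3, 25.5 and 42.4 CPM in the same order (1.93 ± 1.11, edgeR adjusted p = 0.706). For Psma2 the lowest trained type I library lay close above the highest untrained one. The proteasome list as a whole had 14 of 36 genes positive (4634 of 11747 over all genes).

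Single genes of glycogen use, lactate export and antioxidant defence had negative interactions. Gpx3 (chr11:54902453-54910377), the secreted glutathione peroxidase, measured 18.3, 10.6 and 54.7 CPM in untrained and 0.124, 0.353 and 5.48 CPM in trained type I libraries, 11.3-fold lower in the pool. It was at 43.9, 59.3 and 99.0 CPM in untrained and 328, 272 and 290 CPM in trained type IIb libraries, 4.36-fold higher. Neither pair overlapped, and the interaction was -5.92 ± 1.66 (edgeR adjusted p = 0.418). Its range over alternatives was -9.02 to -4.41. The antioxidant list as a whole leaned the other way. Of its 26 genes tested 16 were positive (4634 of 11747 over all genes), with a median of 0.29 against -0.68 for all genes. At unadjusted p under 0.05 in edgeR, 2 were negative (7.98% of all genes) and 0 positive (0.962%). The list median was positive in 18 of 25 alternative settings.

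Slc16a3 (chr11:120948480-120960868), the lactate exporter MCT4 of glycolytic fibres, was at 4.74, 2.87 and 0.929 CPM in type I untrained libraries. In trained type I libraries it had 1 count in all, against 154 in the untrained. Its type IIb groups overlapped at 42.2 to 116 and 49.4 to 261 CPM, and the interaction was -7.68 ± 1.95 (edgeR adjusted p = 0.418). Pygm (chr19:6384399-6398459), muscle glycogen phosphorylase, measured 88.8, 81.9 and 107 CPM in untrained and 26.7, 36.6 and 35.6 CPM in trained type I libraries, 2.87-fold lower and without overlap. Its type IIb groups overlapped widely, at 184 to 736 and 142 to 1399 CPM (-2.23 ± 0.98, edgeR adjusted p = 0.504). Aldoa, muscle aldolase, gave -1.10 ± 0.55 (edgeR adjusted p = 0.590). Of 28 genes of glycolysis and glycogen 22 were negative (60.6% of all genes), 1 of them at unadjusted p under 0.05 (7.98% of all genes). Their median was -0.78, close to that of all genes, and 0.01 under upper-quartile scaling.

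Tcap (chr11:98383811-98384953), telethonin of the Z-disc, was at 2145, 3713 and 2008 CPM in untrained and 1055, 1116 and 1104 CPM in trained type I libraries, 2.18-fold lower. Trained libraries lay close together and below all untrained ones, while type IIb libraries overlapped at 590 to 2722 and 1057 to 5550 CPM. The interaction was -2.28 ± 0.76 (edgeR adjusted p = 0.418). Ryr1, the calcium release channel, was at 490, 1748 and 322 CPM in untrained and 1315, 7027 and 3350 CPM in trained type IIb libraries, with overlap (-1.78 ± 0.91, edgeR adjusted p = 0.610). Eef2, a translation elongation factor, was higher in all trained type IIb libraries, at 197 to 323 against 71.9 to 149 CPM (-1.83 ± 0.85, edgeR adjusted p = 0.542).

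In 4 other muscle lists 0 or 1 gene had an unadjusted p under 0.05 in either direction, against 8.94% of all genes. Over all genes, 4634 of 11747 were positive. For excitation-contraction coupling 8 of 21 genes were positive (median -0.52), for atrophy and autophagy 9 of 21 (-0.71), for the neuromuscular junction 4 of 15 (-0.47) and for the circadian clock 7 of 17 (-1.04), beside the median of -0.68 over all genes. Under upper-quartile scaling the median for excitation-contraction coupling changed sign to 0.58. Leaving out a single library changed the sign of 2 of these medians. For the neuromuscular junction it was -3.49 without type I trained library 3 and 1.73 without type IIb trained library 3. For the clock it was -1.27 and 0.70 without the same libraries. The median of all genes also became positive without type IIb trained library 3.

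Immediate early genes, which are transcribed soon after a stimulus without new protein synthesis, showed no common direction. Of 20 tested 8 were positive (4634 of 11747 over all genes), with a median of -1.35. The median changed sign to 0.53 when only genes with a mean of at least 100 CPM were kept. Fos (chr12:85473890-85477273), a component of AP-1, measured 1165, 278 and 2402 CPM in untrained and 171, 144 and 92.0 CPM in trained type IIb libraries, 9.89-fold lower and without overlap. In type I fibres it was 926, 1598 and 1931 CPM untrained and 2165, 643 and 303 CPM trained, with overlap, and the interaction was 2.72 ± 0.97 (edgeR adjusted p = 0.420). Btg2, an antiproliferative early gene, gave 2.20 ± 1.19, with 622 CPM in type IIb untrained library 3 and 17.0 to 59.4 CPM in the other 5 type IIb libraries. Fosb went the other way (-4.41 ± 2.17, edgeR adjusted p = 0.582), at 30.8 to 397 CPM in untrained and 0.124 to 9.54 CPM in trained type I libraries.

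The 10 negative interactions of smallest p were those of Rgs5, Sparc, Aqp1, Lum, Cdh5, Slc16a3, Trim30a, Ly6a, Vim and H2-T23. Rgs5, a marker of pericytes, measured 285, 17.6 and 259 CPM in untrained and 0, 0.589 and 0 CPM in trained type I libraries. It had no count in type IIb untrained libraries and 0, 0 and 127 CPM in type IIb trained ones, all in library 3. The estimate was -22.1 ± 4.67 (edgeR adjusted p = 0.418), on a group without counts, and is no measure of size. Cdh5, the cadherin of endothelial junctions, had the same layout, at 103, 1.22 and 49.7 CPM in type I untrained and at 0, 0.729 and 25.4 CPM in type IIb trained libraries, beside 1 count in type I trained and 0 in type IIb untrained libraries.

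Aqp1, a water channel of endothelium, was at 103 CPM in type IIb trained library 3 and without counts in the other 5 type IIb libraries. Lum, the matrix proteoglycan lumican, and Ly6a, the surface antigen Sca-1, had 1 and 0 counts in type I trained libraries, against 2488 and 6049 in the untrained. Vim, vimentin, was at 41.1, 0.431 and 815 CPM in untrained and 0.746, 27.6 and 66.5 CPM in trained type I libraries, which overlapped. H2-T23, a nonclassical class I molecule, was at 0 CPM in all type IIb untrained libraries and at 76.4, 0 and 11.8 CPM in trained ones. These 5 genes, Rgs5 and Cdh5 each had an adjusted p of 0.418 in edgeR.

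Of the 15 endothelial markers, 13 passed the filter on low counts. All 13 had negative estimates at unadjusted p under 0.05 (7.98% of all genes) and a group at 3 counts or fewer (23.2% of all genes). They passed through the libraries in which they were high, so this count is a description. Summed over the 15, endothelial markers were at 1210, 27.8 and 776 CPM in type I untrained, 1.96 to 52.0 CPM in trained type I libraries, 0 in untrained type IIb libraries, where 15 of 15 were at 0, and 0.211, 0.623 and 306 CPM in trained type IIb libraries. The 12 fibroblast markers summed to 432, 27.0 and 9813 CPM in untrained and 54.0 to 139 CPM in trained type I libraries, then 0.103 to 10.6 CPM in untrained and 0.527, 29.7 and 313 CPM in trained type IIb libraries. Hba-a1, an alpha globin of red cells with a near-identical copy, was at 535 CPM in type I untrained library 1 and at 0 to 47.1 CPM elsewhere, with no counts in untrained type IIb fibres (-13.0 ± 3.69, edgeR adjusted p = 0.418). In fibre lysates, fewer such cells and less RNA per cell cannot be told apart.

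Matrix genes were high in the same libraries as these markers. Sparc (chr11:55394500-55423183), a collagen-binding matrix protein, was at 140, 20.6 and 2032 CPM in untrained and 21.8, 15.8 and 25.1 CPM in trained type I libraries, with overlap. In type IIb fibres it was at 0.217, 2.01 and 10.2 CPM untrained and 20.8, 24.0 and 84.5 CPM trained, without overlap and 12.7-fold higher in the pool. The interaction was -8.50 ± 1.93 (edgeR adjusted p = 0.418). Col1a2, a chain of collagen I, had 2126 CPM in type I untrained library 3, which also held the 9813 CPM of fibroblast markers, and 18.9 and 0.718 CPM in libraries 1 and 2. Of 25 collagen and matrix genes tested all 25 were negative (60.6% of all genes), 16 at unadjusted p under 0.05 (7.98% of all genes), with a median of -11.4. A group at 3 counts or fewer was present in 17 (23.2% of all genes). These 17 passed the filter through the groups in which they were high, so the counts are a description.

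Without type I untrained libraries 1 and 3 and type IIb trained library 3, the median of collagen and matrix genes was 0.50. That of the 9 endothelial markers tested there was 0.69, against 1.20 for all genes. These libraries were left out for their level of the same endothelial markers, so a smaller estimate for the markers was set by that choice. Type I untrained library 2 was then alone in its group, so no count of genes passing a threshold is given.

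Genes of immune response did not share 1 layout. Of those named, Gbp2 had the layout of the endothelial markers. Trim30a and Il6 were highest in type IIb trained library 2, and H2-T23 in type IIb trained library 1. Trim30a, an interferon-inducible TRIM protein, was at 420 CPM in type IIb trained library 2 and at 0 and 0.289 CPM in the other 2. Il6, the interleukin that contracting muscle releases, was at 84.5 CPM in the same library and at 34.4 CPM in type I untrained library 3, with 0 to 2.28 CPM elsewhere. Gbp2, an interferon-induced guanylate-binding protein, measured 11.5, 4.09 and 12.8 CPM in type I untrained libraries, 2 counts in type I trained, 0 in untrained and 29 counts in trained type IIb libraries. Of 11 interferon response genes tested, 9 were negative (60.6% of all genes), 5 at unadjusted p under 0.05 (7.98% of all genes). A group at 3 counts or fewer was present in 6 (23.2% of all genes), so these counts too are a description. The median was -7.54, and -0.02 without the 3 libraries. Without the same 3 libraries the medians of the oxidative phosphorylation, mitochondrially encoded and chaperone lists were 0.67, 0.84 and 0.51, positive still, but below the 1.20 of all genes there.

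**Figure D5:**
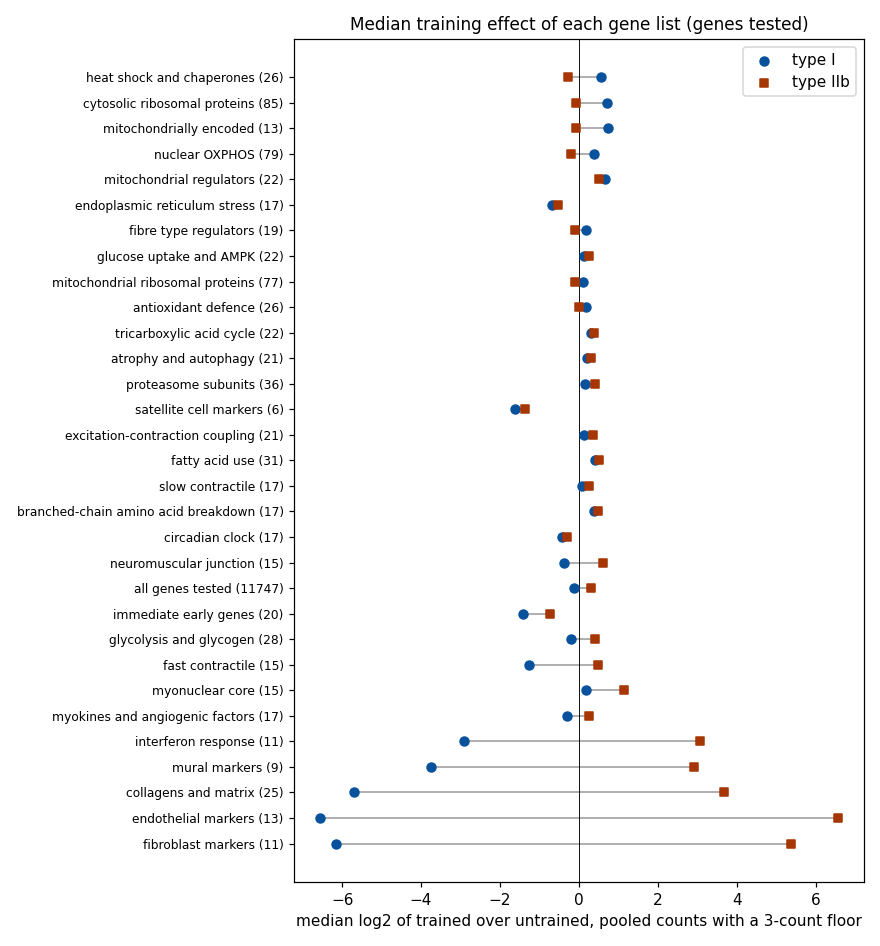
Median log2 ratio of trained over untrained pooled counts (floor of 3 counts per group) of each gene list with at least 5 genes tested, in type I fibres (circles) and type IIb fibres (squares), with the number of genes in brackets. Lists are ordered by interaction. Chaperone, cytosolic ribosomal and respiratory lists lie at the top with circles to the right of squares. Endothelial, fibroblast and matrix lists lie at the bottom, with all genes between.

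Genes with at least 10 counts numbered 11703, 9711 and 14428 in untrained and 6082, 6517 and 11852 in trained type I libraries, then 3636, 9170 and 6002 in untrained and 4291, 5910 and 10932 in trained type IIb libraries. All groups of a fibre type overlapped between trained and untrained libraries. The difference of the training differences was -4572 genes (exact two-sided permutation within fibre type, p = 0.205).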

How the data were processed

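RNA sequencing libraries of type I and type IIb myofibres were grouped by their titles. The authors deposited a table of raw read counts (whole numbers) for each gene and FPKM values scaled by gene length and library total. The submitters' processing notes name TopHat2, an aligner, and mm10. Aligner version, counter and annotation release: not given in the sources used here. Unused per-sample columns numbered 0. Nextera XT libraries carry no strand, so overlapping genes cannot be told apart. Without molecular identifiers, floors cover counting error only.

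Counts were tested in R 4.3.3 with edgeR 4.0.16 (quasi-likelihood, robust, TMM, filterByExpr with minimum count 10 and total 15, adjusted p under 0.05 by Benjamini-Hochberg), in 1 fit of 12 libraries with a mean per group. SE is the absolute log2 value divided by the square root of F. Folds are ratios of pooled counts, with a floor of 3 counts per group. Summed markers are CPM of library totals. Single library values were tested by exact permutation (scipy 1.17.1). Alternatives used DESeq2 1.42.0, limma 3.58.1, other scalings and filters, the deposited FPKM values, and libraries left out. The fit was tested on simulated data.

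Genes were named by rule: up to 10 of smallest unadjusted p in each direction, up to 4 of smallest p from each list, and heavy and light chain genes. The members and the 35 gene lists were chosen with earlier results of these data known. Lists matched 826 of 828 symbols. A result for 1 gene is not reported here.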

Additional observations from a re-analysis of the deposited data

How the results depend on the processing

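Counts of calls differed between tools (adjusted p under 0.05; the cause was not tested). Genes called with a positive and a negative interaction numbered 0 and 0 in edgeR, 28 and 334 in DESeq2, 0 and 3 in limma-voom and 4 and 22 in edgeR with no filter. For training in type I fibres, genes called higher and lower in trained numbered 1 and 46 in DESeq2, 2 and 7 in limma-voom and 0 and 7 with no filter. In type IIb fibres they numbered 277 and 46 in DESeq2, 1 and 1 in limma-voom and 6 and 3 with no filter, and lower calls numbered 1 under upper-quartile scaling. RLE scaling, a minimum count of 50, a fit that was not robust and both FPKM scales gave 0 interaction calls. The fit with the replicate number as a block also gave 0 calls in each direction. Same-numbered libraries of different groups correlated at r = -0.121 to 0.199, with 4 of 18 pairs over 0.1. Others correlated at -0.192 to 0.207, with 2 of 36 over 0.1. These are deviations from means of 3 libraries with overlapping ranges, so they cannot decide whether the numbers pair libraries. Leaving out 1 library at a time gave 0 to 2 positive interaction calls (Tnnc1 without type IIb untrained 1, Lpl and Atp1b1 without type IIb trained 3), 0 negative ones, 0 to 1 lower call in type I (without type I untrained 2) and 0 to 2 in type IIb fibres. The alternatives without the 2 libraries of fewest genes (type IIb untrained 1 and trained 1), without the 3 of highest endothelial markers, and with genes of at least 100 CPM were chosen after seeing the data. The first gave 1 positive interaction call (Tnnc1) and 1 lower call in type IIb. The second left type I untrained library 2 alone in its group, so its calls are not given. The interaction of the mitochondrial share ranged from -2.004 (without type I trained 2) to 8.28 (without type I trained 3) and was -0.013 on a log2 scale. Of 1472 alternative values of 60 named genes 1441 kept direction and call, 27 passed the threshold, mostly genes with a group near 0, and 4 reversed: Casq2 (leave-one-out range -9.15 to 3.30) to 3.30 without type IIb trained 3 and 2.86 without the marker libraries, Mylpf to 0.10 under upper-quartile scaling and Prox1 (range -10.5 to 1.09) to 1.09 without type IIb trained 2. At 1 count per 0.0265 to 0.182 CPM, traces such as those of Tnnc1 in trained type IIb fibres were at the limit of detection.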

Other observations

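More genes with opposite separation (0.136% and 0.17% of all genes in the 2 directions) were found by order of libraries alone. They lie outside the naming rule and were chosen after their values were seen. Ss18l2 was at 151, 155 and 143 CPM in type I untrained and 271, 378 and 180 CPM in type I trained libraries, and at 313, 312 and 409 CPM in type IIb untrained and 39.2, 132 and 143 CPM in type IIb trained ones. Sub1, a transcriptional coactivator, had its 3 trained type I libraries within 431 to 438 CPM, above 273 to 386 CPM untrained, and its trained type IIb libraries within 224 to 248 CPM, below 399 to 697 CPM untrained. Tomm5, a subunit of the import complex of the outer mitochondrial membrane, was at 75.1 to 98.2 and 99.9 to 164 CPM in type I, and at 113 to 137 and 47.3 to 87.1 CPM in type IIb fibres. Their interactions of 2.60, 1.63 and 1.60 had edgeR adjusted p of 0.418, 0.472 and 0.830.

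In the reverse direction, Flot2, a scaffold protein of membrane microdomains, was at 17.2 to 27.4 CPM untrained and 0 to 14.8 CPM trained in type I fibres, and at 0 to 6.20 CPM untrained and 31.3 to 46.9 CPM trained in type IIb fibres. Hdlbp, an RNA-binding protein, was at 84.9 to 93.6 and 21.3 to 76.6 CPM in type I, and at 0.325 to 78.6 and 109 to 398 CPM in type IIb fibres. Their interactions were -5.68 and -2.86 (edgeR adjusted p = 0.676 and 0.712).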
